A study of Mus musculus with 8 samples.

Results

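The clustered histone genes are the genes of the 4 mouse histone gene clusters, taken here as every gene of the deposited count matrix whose symbol begins with Hist1h, Hist2h, Hist3h or Hist4h. They were 69 of the 27179 genes. By symbol, 6 were of the linker histone type H1, 19 of H2A, 19 of H2B, 12 of H3 and 13 of H4. For 2 of them the annotation used here gave no coding sequence: Hist1h2al (H2A) and Hist3h2bb-ps (H2B), a pseudogene by its symbol. The study sequenced RNA of natural killer (NK) cells, lymphocytes that kill tumour and infected cells, from C57BL/6 mice that were wild type or CIS-/-. CIS is the protein of the gene Cish, a suppressor of cytokine signalling. Each genotype was profiled ex vivo and in vitro, with 2 libraries in each of the 4 groups, and per the labels all cells came from spleen, bone marrow and blood together and were purified with beads against CD49b. The labels give no mouse age, no culture medium, cytokine or time, and do not say whether libraries of a group came from separate mice or cultures. The p-values below therefore measure the spread between these libraries, which may be technical.

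Most clustered histone genes are replication dependent: they are transcribed in S phase, when new DNA needs new nucleosomes. Their mRNAs are the known exception to polyadenylation in animal cells, ending instead just after a short conserved stem-loop that is bound by the stem-loop binding protein Slbp. Some members also give longer, polyadenylated mRNAs from a signal beyond the stem-loop, and these can be made in cells that do not divide.

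The stem-loop was found in the longest GENCODE transcript model of 45 of the 69 genes (release M21, build GRCm38). It is shown for the 4 members with the most counts among those whose model has it, and for 3 members named below for their change. Members differed in how far the model runs past it. Each line gives the RNA-sense DNA sequence, 5′ to 3′, with the 16 bases of the stem-loop in capitals and 5 bases on each side.
Hist3h2a, chr11:58955172-58955187, plus strand: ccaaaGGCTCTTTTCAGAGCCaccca
Hist1h1c, chr13:23739512-23739527, plus strand: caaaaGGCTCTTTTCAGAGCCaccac
Hist1h4i, chr13:22040966-22040981, minus strand: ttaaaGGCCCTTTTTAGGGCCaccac
Hist3h2ba, chr11:58949349-58949364, plus strand: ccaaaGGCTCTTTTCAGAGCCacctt
Hist1h2bj, chr13:22043638-22043653, plus strand: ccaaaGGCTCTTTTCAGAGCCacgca
Hist1h3c, chr13:23745047-23745062, minus strand: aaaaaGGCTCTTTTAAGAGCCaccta
Hist1h4f, chr13:23551291-23551306, minus strand: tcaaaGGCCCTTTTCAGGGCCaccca

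The most frequent stem-loop was shared by 25 genes of types H1, H2A, H2B and H3, among them Hist3h2a, Hist1h1c, Hist3h2ba and Hist1h2bj. A second form, that of Hist1h4f, was found in 7 genes, all of type H4. In 22 of the 45 genes the model ended within 100 bases of the stem-loop, and in 23 it ran at least 100 bases further. The first set had a median of 41 counts summed over the 8 libraries and a highest total of 206, that of Hist1h2bj. The second set had a median of 86 and a highest total of 4134, that of Hist3h2a, whose model ran 1643 bases past the stem-loop. The 24 genes with no stem-loop in the model had a median of 16.5 and a highest total of 3012, that of Hist2h2be. Some of these models, those of Hist1h4k and Hist1h2bl among them, hold the coding sequence alone. A stem-loop missing from the model is therefore not shown to be missing from the gene. The totals of the sets overlapped, and a longer annotated gene can also collect more reads: the 32 members whose length in the count matrix equals the coding length had a median of 25 counts, and the 35 with a longer one had 62. A polyadenylation signal (AATAAA or ATTAAA in the last 40 bases of the model) was present in 16 of the 69 genes, with a median of 96.5 counts against 37 in the other 53. Of the 6 genes with the most counts, Hist3h2a (4134 counts), Hist1h1c (3622), Hist2h2be (3012), Hist1h4i (1279) and Hist3h2ba (490) had such a signal, and Hist1h2bc (980) did not. These are descriptions of annotated models, not of measured transcript ends. The labels do not state whether RNA was selected by its poly(A) tail, and the part of such a selection in these levels was not tested.

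**Figure D1:**
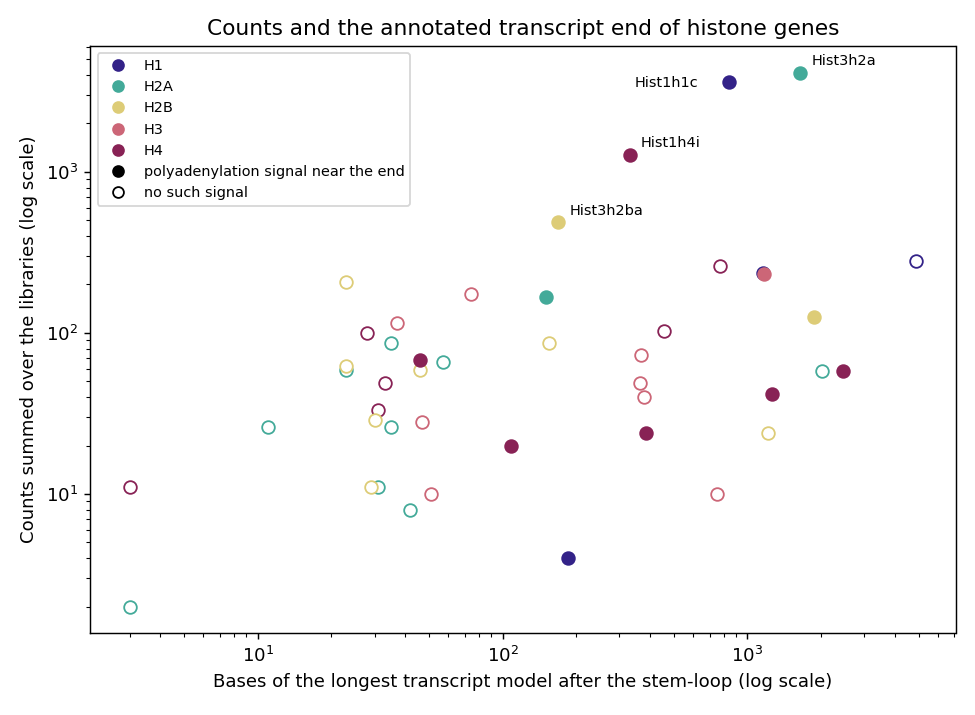
Counts summed over the 8 libraries (log scale) against the number of bases of the transcript model after the stem-loop (log scale), 1 point for each of the 45 genes with a stem-loop, coloured by histone type, filled where a polyadenylation signal lies near the model's end. Hist3h2a, Hist1h1c, Hist1h4i and Hist3h2ba stand above all others, and each has a model that runs past the stem-loop and a signal at its end.

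The libraries held 21485710 to 28065268 counts, and 1 CPM (the usual depth-scaled unit of read counts, here by effective library size) stood for 21.7 to 28.8 counts. Cish, the deleted gene, was at 9.26 and 9.12 CPM ex vivo in wild type and at 1.29 and 2.64 CPM in the CIS-/- ones. In vitro it was at 219.8 and 201.9 CPM in wild type and at 21.2 and 17.2 CPM in CIS-/-, so each CIS-/- library was below both wild-type libraries of its state. All 10 NK markers examined, Ncr1 and Eomes among them, had counts in every group. Xist, transcribed in female cells, was at 119.6 and 162.1 CPM ex vivo in wild type and at 130.7 and 89.7 CPM in vitro in CIS-/- cells, against 0.322 CPM or less in the other 4. The Y-linked Eif2s3y was at 0.0386 CPM or less in the CIS-/- in vitro libraries, at 21.7 to 34.1 CPM in wild type ex vivo and at 70.4 to 135.2 CPM in the others. The sex makeup of the libraries thus differed in each of the 4 comparisons between groups below, and its part cannot be told apart from that of genotype or culture.

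Clustered histone genes made up a very small share of the counts: 0.00689% to 0.0102% of a library, and 17191 counts in all. One gene (Hist1h2af) had no count in any library, 11 had 1 to 9 counts, 40 had 10 to 99, 13 had at least 100 but under 1000 and 4 had 1000 or more. The 6 genes with the most counts, named above, held 78.6% of all counts of the family. After the filter on low counts 29 members could be tested (4 of H1, 6 of H2A, 9 of H2B, 4 of H3 and 6 of H4), and the 40 that could not held 4.9% of the family's counts. Among the members just inside and just outside that filter the totals overlapped: the lowest total of a tested member was 49 (Hist1h4f) and the highest of an untested one was 58 (Hist1h2ac and Hist4h4). The filter keeps a gene that is high in 1 group, so the counts of called members below are out of those tested and not out of the family. Members resemble each other closely in sequence: all 13 H4 genes encode 1 protein, and 9 of the 18 H2A genes with a coding sequence encode the same one. The coding sequence of 38 members was at least 98% identical to that of another member, including 11 of the tested ones, and how reads shared between copies were counted is not given in the sources used here. Values of these members, Hist1h2bc, Hist1h2bj, Hist1h2ag, Hist1h2ae, Hist1h2ai, Hist1h3c, Hist1h3a and Hist1h3e among those named below, are uncertain for that reason.

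Per kilobase of gene length, the highest tested members were 1 of each type except H3. Hist1h4i had a mean of 11.5 CPM per kb over the 8 libraries, Hist1h1c 11.4, Hist3h2a 10.4 and Hist1h2bc 6.52. The highest H3 gene, Hist1h3c, had 1.71 CPM per kb. The levels of single genes in each library are plotted by type.

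**Figure D2:**
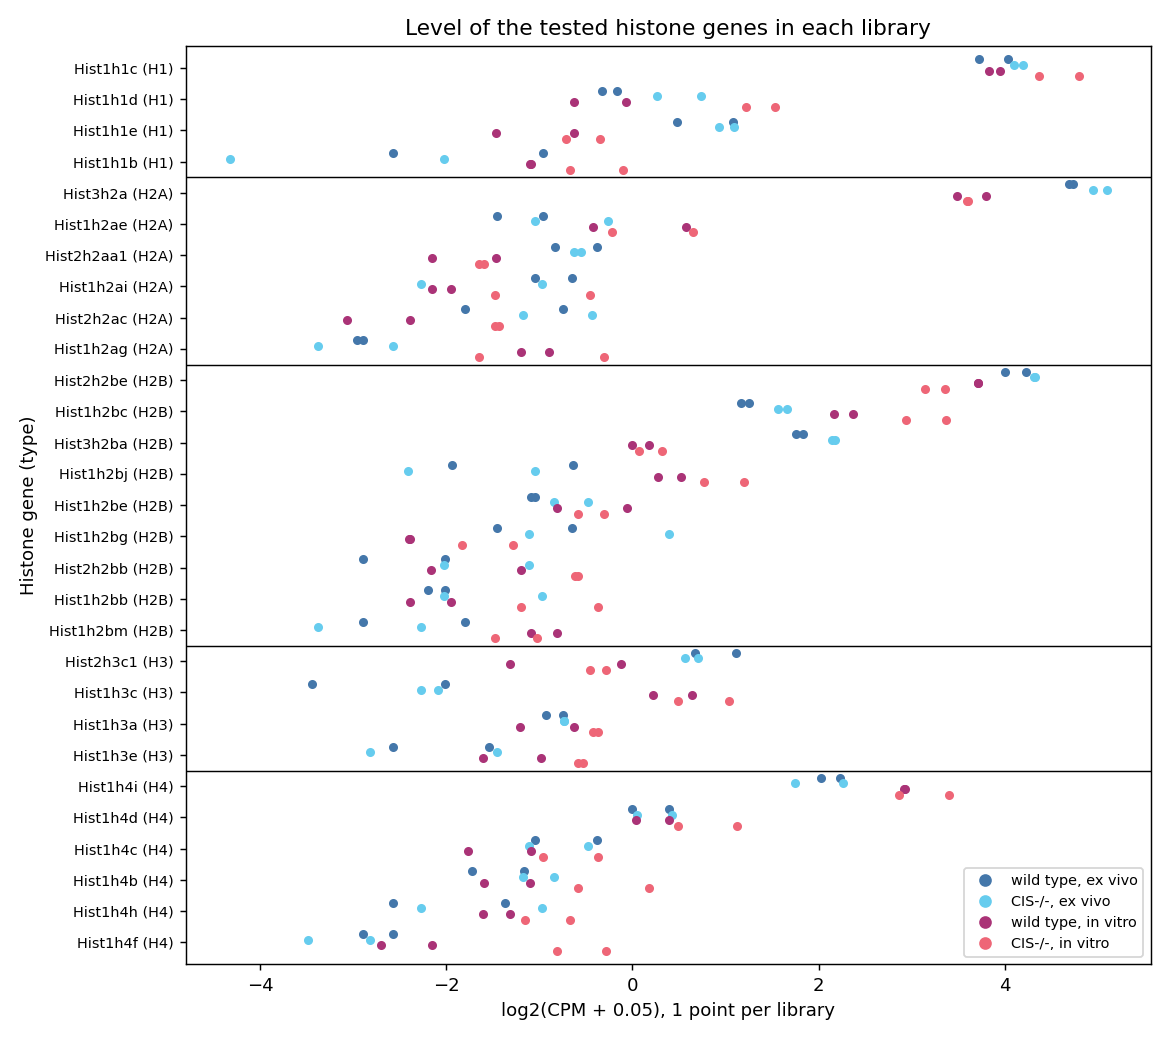
Level of each of the 29 tested clustered histone genes as log2(CPM + 0.05), 1 point per library and 1 colour per group, with lines between the types H1, H2A, H2B, H3 and H4. Hist1h1c, Hist3h2a and Hist2h2be are the highest of the 29 in CPM in most libraries, and most other members lie below 1 CPM, which is 0 on this scale apart from the added 0.05.

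Summed by histone type, the H1 genes were at 20.0 and 15.6 CPM in wild type ex vivo, 21.7 and 21.1 in CIS-/- ex vivo, 17.2 and 15.9 in wild type in vitro and 24.4 and 32.4 in CIS-/- in vitro. The H2A sum was at 29.0 and 29.5, 37.4 and 33.4, 16.6 and 14.3, and 15.3 and 17.0 CPM in the same order. Both of its in vitro groups lay below both ex vivo groups, and 1 gene, Hist3h2a, made up most of it. The H2B sum was at 26.2 and 24.3, 29.6 and 30.8, 23.0 and 22.3, and 22.5 and 27.8 CPM. The H4 sum was higher in all 4 in vitro than in all 4 ex vivo libraries, with 8.16 and 7.10, 9.40 and 6.37, 10.01 and 10.96, and 12.3 and 17.3 CPM. The H3 sum was the smallest, between 2.67 and 5.41 CPM. Its highest 2 libraries were those of CIS-/- in vitro, at 4.78 and 5.41 CPM.

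The clusters differed more plainly than the types. Clusters were taken from the symbols. Of the Hist1 genes on chromosome 13, Hist1h2al (chr13:51202727-51203065, 14 counts) lies apart from the others, which end by position 23934851. The 55 genes counted as the Hist1 cluster summed to 34.9 and 29.7 CPM in wild type ex vivo and 37.4 and 35.9 in CIS-/- ex vivo. In vitro they summed to 40.6 and 40.9 CPM in wild type and 54.7 and 73.7 in CIS-/- cells. The 10 genes of the Hist2 cluster on chromosome 3 went from 22.8 and 19.5 CPM to 14.8 and 14.3 CPM in wild type, and from 23.5 and 23.8 to 11.3 and 12.7 CPM in CIS-/- cells. The 3 genes of the Hist3 cluster on chromosome 11 went from 29.2 and 30.2 to 14.9 and 12.1 CPM in wild type, and from 38.8 and 35.3 to 13.3 and 13.2 CPM in CIS-/- cells. In both genotypes, then, every in vitro library was above every ex vivo library of that genotype for the Hist1 sum and below for the Hist2 and Hist3 sums. The Hist2 and Hist3 sums were mostly 1 gene each. Hist2h2be held 3012 of the 3591 counts of the Hist2 cluster, and Hist3h2a held 4134 of the 4645 counts of the Hist3 cluster. In bulk samples, fewer cells of a type and less RNA per cell cannot be told apart. Hist4h4, the only member of the Hist4 cluster on chromosome 6, had 58 counts and was not tested.

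**Figure D3:**
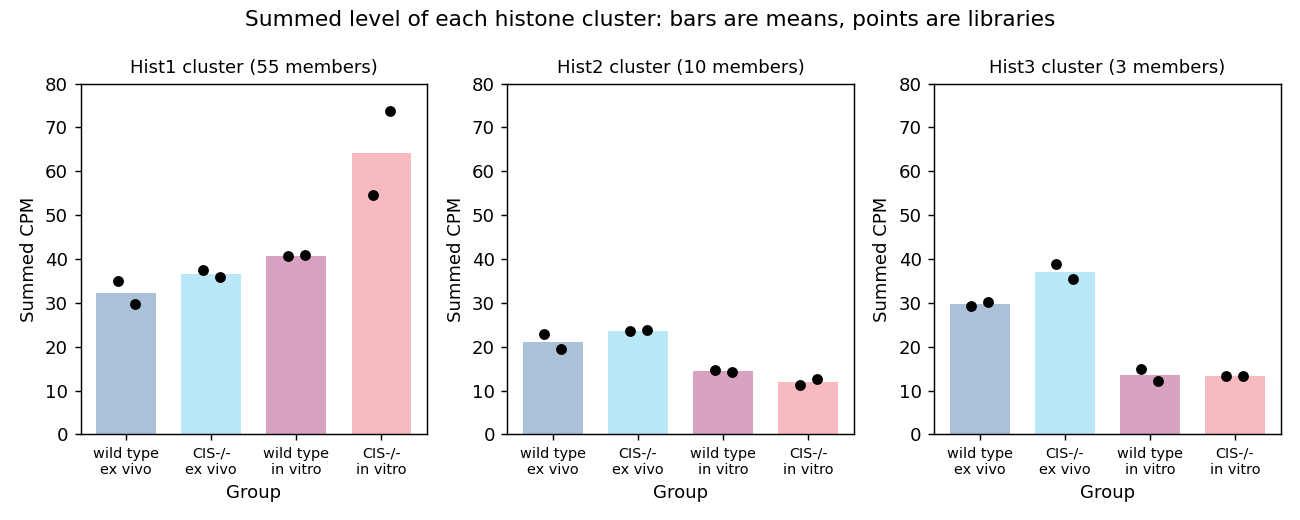
Summed CPM of the genes of the Hist1, Hist2 and Hist3 clusters in the 4 groups; bars are the means of 2 libraries and points are the libraries. The Hist1 sum is highest in the CIS-/- in vitro libraries (54.7 and 73.7 CPM), while the Hist2 and Hist3 sums are lower in all 4 in vitro libraries than in all 4 ex vivo libraries.

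Culture was compared within each genotype by edgeR's quasi-likelihood test on the counts, with p-values adjusted over all 13184 genes tested and called at 0.05. In wild-type cells 13 of the 29 members were called, 6 higher and 7 lower in vitro. Culture changed much of the transcriptome: 63.7% of all genes tested were called, 32.1% higher and 31.6% lower, so the members' share was below the background. Their median log2 fold change was 0.02, against -0.002 over all genes. In CIS-/- cells 15 of the 29 were called, 11 higher and 4 lower, beside 72.4% of all genes, 34.8% higher and 37.5% lower, with a median of 0.70 against -0.05. In both genotypes 5 members rose and 4 fell, 1 rose and 3 fell in wild type alone, 6 rose in CIS-/- cells alone, and 10 were called in neither. The groups did not overlap for 8 members higher and 10 lower in wild type, beside 43.5% and 44.0% of all genes tested, and for 16 higher and 8 lower in CIS-/- cells, beside 41.4% and 44.0%. By cluster, the Hist1 genes counted 6 higher and 1 lower of 22 in wild type and 11 higher and 1 lower in CIS-/- cells. No tested Hist2 or Hist3 gene was called higher, and Hist2h2bb, an H2B gene that was not called, had log2 fold changes of 0.95 and 1.01 (adjusted p = 0.26 and 0.14, edgeR). Of 5 tested Hist2 genes 4 fell in wild type and 1 in CIS-/- cells, and both tested Hist3 genes fell in both genotypes.

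The split between higher and lower calls depended on scaling. Scaled by library totals alone, CIS-/- cells had 7 members higher and 7 lower, and the median of all genes moved to -0.17. With the trend on gene length and base composition removed, the split was 7 and 7 in CIS-/- and 3 and 9 in wild-type cells. The members' median was then 0.187 in CIS-/- cells, against 0.011 over all genes fitted, and -0.134 in wild type, against 0.031. With the deposited log2 RPKM values the wild-type split was 9 and 5. The wild-type count was 5 without wild-type ex vivo replicate 1 or wild-type in vitro replicate 2 and 8 without wild-type in vitro replicate 1, and the CIS-/- count was 8 without CIS-/- in vitro replicate 2.

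Hist3h2a and Hist3h2ba, an H2A and an H2B gene within 7911 bases of each other (chr11:58948920-58956830), fell in both genotypes. Hist3h2a was at 25.7 and 26.5 CPM in wild type ex vivo and at 13.8 and 11.1 CPM in vitro. Its level in CIS-/- cells was 34.1 and 30.8 CPM ex vivo and 12.1 CPM in both in vitro libraries. All 4 in vitro libraries were below all 4 ex vivo ones. The log2 fold change was -1.07 ± 0.13 (SE, adjusted p = 0.000152, edgeR) in wild type and -1.42 ± 0.13 (adjusted p = 2.1e-05) in CIS-/- cells. Its annotated span overlaps Trim17 on the same strand, so reads of that overlap could belong to either gene. Hist3h2ba was at 3.32 and 3.51 CPM in wild type ex vivo and 1.08 and 0.949 CPM in vitro, and at 4.47 and 4.37 CPM in CIS-/- cells ex vivo and 1.20 and 1.001 CPM in vitro. The groups did not overlap in either genotype, with log2 fold changes of -1.75 ± 0.23 (adjusted p = 0.000288, edgeR) and -2.002 ± 0.23 (adjusted p = 8.8e-05).

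Hist2h2be, an H2B gene of the Hist2 cluster (chr3:96221119-96223738, plus strand), also fell. It was at 18.7 and 15.9 CPM in wild type ex vivo and 13.1 and 13.0 CPM in vitro, and at 19.9 CPM in both CIS-/- libraries ex vivo and 8.79 and 10.2 CPM in vitro. In vitro libraries were below ex vivo libraries in both genotypes, with log2 fold changes of -0.41 ± 0.13 (adjusted p = 0.022, edgeR) and -1.07 ± 0.13 (adjusted p = 0.000116). In wild type the call ended when ex vivo replicate 1 was left out (-0.28, adjusted p = 0.176) or when 1 of the in vitro libraries was (adjusted p = 0.0594 and 0.0819). Hist2h2ac and Hist2h2aa1, which encode H2A, and Hist2h3c1, which encodes H3, fell in wild type by 1.84, 1.31 and 1.57 on the log2 scale (adjusted p = 0.043, 0.034 and 0.011, edgeR). In CIS-/- cells their log2 fold changes were -0.76, -1.15 and -1.04 (adjusted p = 0.252, 0.0507 and 0.0527). Leaving out wild-type ex vivo replicate 1 ended all 3 wild-type calls (adjusted p = 0.314, 0.204 and 0.0812), as did leaving out wild-type in vitro replicate 2 (0.0772, 0.207 and 0.073). Hist2h2ac also lost its call without wild-type in vitro replicate 1, CIS-/- ex vivo replicate 1 or either CIS-/- in vitro library (0.0508 to 0.186), and Hist2h2aa1 without any of the other libraries except wild-type in vitro replicate 1 (0.0522 to 0.0718). The coding sequence of Hist2h2aa1 is identical to that of Hist2h2aa2.

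Of the Hist1 genes called in culture, 1 fell, against the direction of the rest. Hist1h1e, a linker histone, was at 2.06 and 1.34 CPM in wild type ex vivo and at 0.313 and 0.597 CPM in vitro. It was at 2.07 and 1.85 CPM in CIS-/- cells ex vivo and 0.732 and 0.561 CPM in vitro. All 4 in vitro libraries were again below all 4 ex vivo ones, with log2 fold changes of -1.89 ± 0.41 (adjusted p = 0.0037, edgeR) and -1.59 ± 0.39 (adjusted p = 0.0059, and 0.0555 without CIS-/- in vitro replicate 2). Its annotated span overlaps that of Hist1h2be on the same strand.

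Among the genes that rose, Hist1h3c, an H3 gene (chr13:23744973-23745602, minus strand), had a large change in both genotypes. It was at 0.0421 and 0.197 CPM in wild type ex vivo and at 1.11 and 1.51 CPM in vitro, and at 0.184 and 0.157 CPM in CIS-/- cells ex vivo and 1.35 and 2.002 CPM in vitro. The log2 fold changes were 3.38 ± 0.57 (adjusted p = 0.001, edgeR) and 3.26 ± 0.54 (adjusted p = 0.00063). Its ex vivo levels rest on 1 and 5 counts in wild type and 4 and 4 in CIS-/- cells, which leaves the size of the change imprecise. In CIS-/- cells the change of Hist1h4f (3.24 ± 0.65) was within the SE of that of Hist1h3c.

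The other members that rose in both genotypes were Hist1h2bc, Hist1h2bj, Hist1h2ag and Hist1h4i, and the last 3 are neighbours. Hist1h4i, Hist1h2ag and Hist1h2bj occupy chr13:22040636-22043676, 3041 bases in which no other member lies, and Hist1h2ag and Hist1h2bj are transcribed away from each other from starts 269 bases apart. Hist1h4i was at 4.63 and 4.03 CPM in wild type ex vivo and 7.54 and 7.48 CPM in vitro, and at 4.74 and 3.31 CPM in CIS-/- cells ex vivo and 7.21 and 10.5 CPM in vitro. In vitro libraries were above ex vivo libraries throughout, by 0.80 ± 0.24 (log2, adjusted p = 0.0176, edgeR) and 1.14 ± 0.24 (adjusted p = 0.0025). Leaving out any 1 wild-type library ended the wild-type call (adjusted p from 0.0513 without ex vivo replicate 1 to 0.105 without ex vivo replicate 2, with 0.0678 and 0.0565 without in vitro replicates 1 and 2), as did removing the length and base composition trend (0.38, adjusted p = 0.0927). Hist1h2bj, an H2B gene, went from 0.210 and 0.592 to 1.39 and 1.16 CPM in wild type and from 0.138 and 0.433 to 1.66 and 2.24 CPM in CIS-/- cells. Its log2 fold changes were 1.64 ± 0.54 (adjusted p = 0.026, edgeR) and 2.71 ± 0.56 (adjusted p = 0.0022). The wild-type call ended when ex vivo replicate 1 (1.10, adjusted p = 0.168), in vitro replicate 1 (0.11) or in vitro replicate 2 (0.0602) was left out, and with the length and base composition trend removed (0.0529). Hist1h2bj was singled out after its values were seen, as were the 3 Hist2 genes above and Hist1h2bm below. Hist1h2ag, an H2A gene, had 2 and 2 counts in wild type ex vivo and 14 and 11 in vitro, and 1 and 3 counts in CIS-/- cells ex vivo and 7 and 19 in vitro. The log2 fold changes of 2.35 ± 0.76 (adjusted p = 0.024, edgeR) and 2.53 ± 0.75 (adjusted p = 0.014) rest on those few counts. Its wild-type call was lost without any 1 wild-type library (adjusted p = 0.105 and 0.117 without ex vivo replicates 1 and 2, 0.0965 and 0.0534 without in vitro replicates 1 and 2). Its CIS-/- call was lost without ex vivo replicate 1 (adjusted p = 0.0776) and without in vitro replicate 2 (1.63, adjusted p = 0.138).

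Hist1h2bc, an H2B gene (chr13:23684199-23692908, plus strand), was at 2.19 and 2.33 CPM in wild type ex vivo and 5.11 and 4.43 CPM in vitro, and at 2.90 and 3.11 CPM in CIS-/- cells ex vivo and 7.59 and 10.3 CPM in vitro. Each group stood apart from each other group: both CIS-/- libraries were above both wild-type libraries in each state, and all in vitro libraries were above all ex vivo ones. The change on culture was 1.08 ± 0.21 (log2, adjusted p = 0.0025, edgeR) and 1.57 ± 0.21 (adjusted p = 0.00018).

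Members called higher in 1 genotype alone were mostly of low count. Hist1h2ae, an H2A gene, was called in wild type alone (1.45 ± 0.56, adjusted p = 0.048, edgeR), at 0.463 and 0.316 CPM ex vivo and 0.695 and 1.44 CPM in vitro. Without wild-type in vitro replicate 2 its log2 fold change was 0.84 (adjusted p = 0.311), and its adjusted p was 0.103 and 0.216 without ex vivo replicates 1 and 2 and 0.0546 and 0.057 without CIS-/- in vitro replicates 1 and 2. In CIS-/- cells Hist1h1b, a linker histone, had 0 and 5 counts ex vivo and 15 and 22 in vitro (log2 fold change 2.74 ± 0.89, adjusted p = 0.021). Without CIS-/- ex vivo replicate 1, the library at 0, the change was 1.87 (adjusted p = 0.0771), and without in vitro replicate 2 it was 2.42 (adjusted p = 0.116). The H3 gene Hist1h3e had a log2 fold change of 1.56 ± 0.62 (adjusted p = 0.049, edgeR) in CIS-/- cells, at 0.0921 and 0.315 CPM ex vivo and 0.617 and 0.641 CPM in vitro. Its call was lost without 7 of the 8 libraries, CIS-/- ex vivo replicate 2 being the exception, with 0.99 (adjusted p = 0.225) without CIS-/- ex vivo replicate 1 and adjusted p from 0.0645 to 0.152 without the other 6. Hist1h2bm, an H2B gene, was called in CIS-/- cells at 1.78 ± 0.71 (adjusted p = 0.049), and lost that call without any library but CIS-/- ex vivo replicate 2 (adjusted p from 0.0605 to 0.216). Hist1h1c, Hist1h1d and Hist1h4f, also called higher in CIS-/- cells alone, are described with the genotype comparison. No difference between the genotypes in the change on culture was called for any of these genes.

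**Figure D4:**
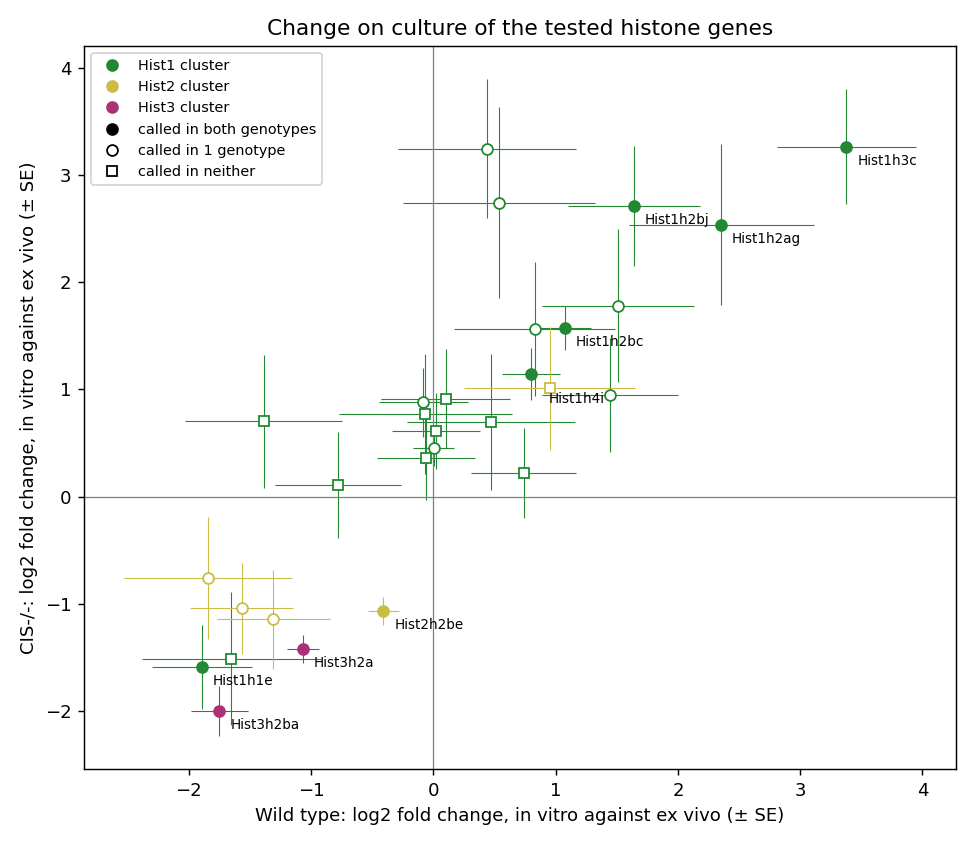
Log2 fold change from ex vivo to in vitro in CIS-/- against wild-type cells for the 29 tested members, with SE bars, coloured by cluster; filled circles are called in both genotypes, open circles in 1, squares in neither. The named points at the upper right are Hist1 genes (Hist1h3c at 3.38 and 3.26), and those at the lower left are Hist3h2a, Hist3h2ba, Hist2h2be and Hist1h1e.

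The promoters of members that moved together in culture are shown next, the Hist3 pair that fell and the region between Hist1h2ag and Hist1h2bj, which rose, with Hist1h3c, which rose in both genotypes. They are RefSeq windows (build GRCm38.p6) from 250 bases before to 50 after the start, 5′ to 3′ on the gene's strand. Capitals mark the TATA box letters TATAAA, the CCAAT box letters CCAAT and the octamer letters ATTTGCAT, each searched on both strands, so that the reverse complements are in capitals too. The letters of the 3 motifs are distinct, and a base in overlapping matches is shown once.
Hist3h2a, chr11:58954435-58954734, plus strand: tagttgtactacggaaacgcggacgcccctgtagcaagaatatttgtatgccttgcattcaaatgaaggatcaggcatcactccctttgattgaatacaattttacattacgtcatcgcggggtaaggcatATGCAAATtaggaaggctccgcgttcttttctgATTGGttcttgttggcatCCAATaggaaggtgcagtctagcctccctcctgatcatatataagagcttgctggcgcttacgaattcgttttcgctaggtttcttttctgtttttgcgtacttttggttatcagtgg
Hist3h2ba, chr11:58948661-58948960, plus strand: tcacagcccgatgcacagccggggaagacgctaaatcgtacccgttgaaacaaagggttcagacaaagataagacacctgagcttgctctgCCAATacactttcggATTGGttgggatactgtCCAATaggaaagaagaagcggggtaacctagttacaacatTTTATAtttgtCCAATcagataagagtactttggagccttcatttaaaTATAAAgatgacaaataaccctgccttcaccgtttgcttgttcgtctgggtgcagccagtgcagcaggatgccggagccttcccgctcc
Hist1h2bj, chr13:22042948-22043247, plus strand: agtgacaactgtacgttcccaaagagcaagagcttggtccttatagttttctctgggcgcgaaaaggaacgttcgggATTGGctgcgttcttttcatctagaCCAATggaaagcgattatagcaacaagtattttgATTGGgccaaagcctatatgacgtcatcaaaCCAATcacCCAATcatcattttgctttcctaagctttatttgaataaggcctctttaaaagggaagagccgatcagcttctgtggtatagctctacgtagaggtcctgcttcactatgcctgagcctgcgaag
Hist1h3c, chr13:23745472-23745771, minus strand: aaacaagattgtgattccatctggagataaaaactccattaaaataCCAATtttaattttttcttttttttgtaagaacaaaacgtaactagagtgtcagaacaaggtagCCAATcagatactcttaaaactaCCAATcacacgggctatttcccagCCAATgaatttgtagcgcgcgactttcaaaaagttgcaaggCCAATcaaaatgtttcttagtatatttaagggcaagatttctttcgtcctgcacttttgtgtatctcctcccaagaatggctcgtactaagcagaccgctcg

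Hist1h3c and Hist1h2bj, which rose, each held 5 matches to the CCAAT box and none to TATAAA. Hist3h2ba, which fell, held 4 CCAAT matches and 2 to TATAAA, and Hist3h2a held 2 CCAAT matches, 1 octamer and none to TATAAA. Hist1h2ag, whose promoter overlaps that of Hist1h2bj, held 5 CCAAT matches and none to TATAAA. Hist1h4i, which rose in both genotypes and is not shown, held 1 match to TATAAA and none to CCAAT. Hist1h1e, which fell in both, held 1 of each. Any link of these matches to the change on culture was not tested. Over the 62 members with a RefSeq promoter, a CCAAT match was present in 6 of 6 H1, 18 of 18 H2A, 17 of 17 H2B and 10 of 10 H3 promoters but in 3 of 12 H4 promoters, against 37.4% of 32851 mouse promoters of the same length. The octamer, the binding sequence of the factor Pou2f1, was found in 7 of 18 H2A and 7 of 17 H2B promoters and in none of the others, against 1.7% of all promoters. TATAAA was found in 4 of 6 H1, 11 of 18 H2A, 8 of 17 H2B, 4 of 10 H3 and 8 of 12 H4 promoters, against 13.6%. These are matches of letters, and no binding was measured.

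Genotype was then compared on the same libraries, so these comparisons share groups with those of culture. Ex vivo came first. No member was called (0 of 29, edgeR), beside 0.0607% of all genes, and 1 member, Hist3h2a, had an unadjusted p below 0.05 (adjusted p = 0.75). DESeq2, limma-voom and limma on the deposited log2 RPKM values called none either. The median log2 fold change of the 29 members, CIS-/- against wild type, was 0.205, against 0.024 over all genes. With the trend on length and base composition removed it was 0.151, against 0.013. Both CIS-/- libraries were above both wild-type libraries for 8 members and below for none. Of all genes tested, 22.0% were above and 18.4% below. Hist3h2a differed by 0.31 ± 0.12, Hist1h1c by 0.26 ± 0.17 and Hist2h2be by 0.20 ± 0.13 (adjusted p = 0.75, 0.78 and 0.78).

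In vitro, 5 of the 29 members were called between the genotypes, 4 higher and 1 lower in CIS-/- cells, beside 25.6% of all genes (11.0% higher and 14.6% lower). The members' median log2 fold change was 0.63 against 0 over all genes. Both CIS-/- libraries were above both wild-type libraries for 17 members and below for 1, where 33.7% of all genes tested were above and 35.1% below. The 4 called higher were 2 linker histone genes (Hist1h1d and Hist1h1c), an H2B gene (Hist1h2bc) and an H4 gene (Hist1h4f), all of the Hist1 cluster, and the 1 called lower was Hist2h2be. No H2A or H3 gene was called.

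Hist1h1d, a linker histone (chr13:23553262-23560686, plus strand), was at 0.904 and 0.597 CPM in wild type and at 2.27 and 2.84 CPM in CIS-/- cells in vitro. The groups did not overlap, and the log2 fold change was 1.76 ± 0.33 (adjusted p = 0.0097, edgeR). Ex vivo it was at 0.842 and 0.750 CPM in wild type and 1.15 and 1.61 CPM in CIS-/- cells, a difference of 0.80 ± 0.35 (adjusted p = 0.77). On culture it rose in CIS-/- cells by 0.88 ± 0.32 (adjusted p = 0.034), and in wild type the change was -0.08 ± 0.36 (adjusted p = 0.86). The call in vitro was lost without wild-type replicate 2 (adjusted p = 0.0684) or CIS-/- replicate 2 (adjusted p = 0.0823). The culture call was lost without either CIS-/- in vitro library (adjusted p = 0.0617 and 0.181), CIS-/- ex vivo replicate 1 (0.144) or either wild-type ex vivo library (0.0579 and 0.0576).

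Hist1h1c (chr13:23738808-23740367, plus strand), the linker histone with the most counts, was at 15.4 and 14.2 CPM in wild type and 20.5 and 27.8 CPM in CIS-/- cells in vitro. The difference was 0.71 ± 0.17 (adjusted p = 0.019, edgeR). Ex vivo it was at 16.3 and 13.2 CPM in wild type and 18.2 and 17.1 CPM in CIS-/- cells. On culture its level changed by 0.00 ± 0.17 in wild type (adjusted p = 0.99) and rose by 0.45 ± 0.17 in CIS-/- cells (adjusted p = 0.036). That rise was not called when scaled by library totals (0.33, adjusted p = 0.0965), with the length and base composition trend removed (0.22, adjusted p = 0.202), without CIS-/- ex vivo replicates 1 or 2 (adjusted p = 0.0635 and 0.119) or without CIS-/- in vitro replicate 2 (0.22, adjusted p = 0.268). The genotype call was lost without wild-type in vitro replicates 1 or 2 (adjusted p = 0.0679 and 0.102) and without CIS-/- in vitro replicate 2 (0.48, adjusted p = 0.134).

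Hist1h2bc, with the CPM values given above, was higher in CIS-/- cells in vitro by 0.91 ± 0.20 (adjusted p = 0.015, edgeR). With the trend on length and base composition removed the difference was 0.48 (adjusted p = 0.081), and the call was also lost without wild-type replicates 1 or 2 (adjusted p = 0.0567 and 0.0888) or CIS-/- replicate 2 (0.67, adjusted p = 0.117). Hist1h4f had 3 and 5 counts in wild type and 20 and 13 in CIS-/- cells in vitro, and 2 and 3 against 2 and 1 ex vivo. The in vitro groups did not overlap, and the log2 fold change was 2.17 ± 0.54 (adjusted p = 0.023, edgeR). Leaving out any 1 in vitro library or either wild-type ex vivo library ended that call (adjusted p from 0.0594 to 0.138). Its rise on culture in CIS-/- cells set 33 counts against 3, a ratio of 10.2 with an exact 95% counting interval of 3.19 to 51.9 (counting error only; adjusted p = 0.0019).

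Hist2h2be, with its CPM values also given above, ran opposite ways in the 2 states: both CIS-/- libraries were above both wild-type libraries ex vivo and below them in vitro. In vitro the difference was -0.46 ± 0.13 (adjusted p = 0.036, edgeR) and ex vivo 0.20 ± 0.13. The change of the genotype difference between states was -0.66 ± 0.18 (adjusted p = 0.128), so it was not called. Leaving out any 1 of the 4 in vitro libraries ended the in vitro call (adjusted p from 0.0815 to 0.151), as did leaving out either wild-type ex vivo library (0.0598 and 0.0606). DESeq2 (adjusted p = 0.0623) and limma on the deposited log2 RPKM values (adjusted p = 0.09) did not call it.

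**Figure D5:**
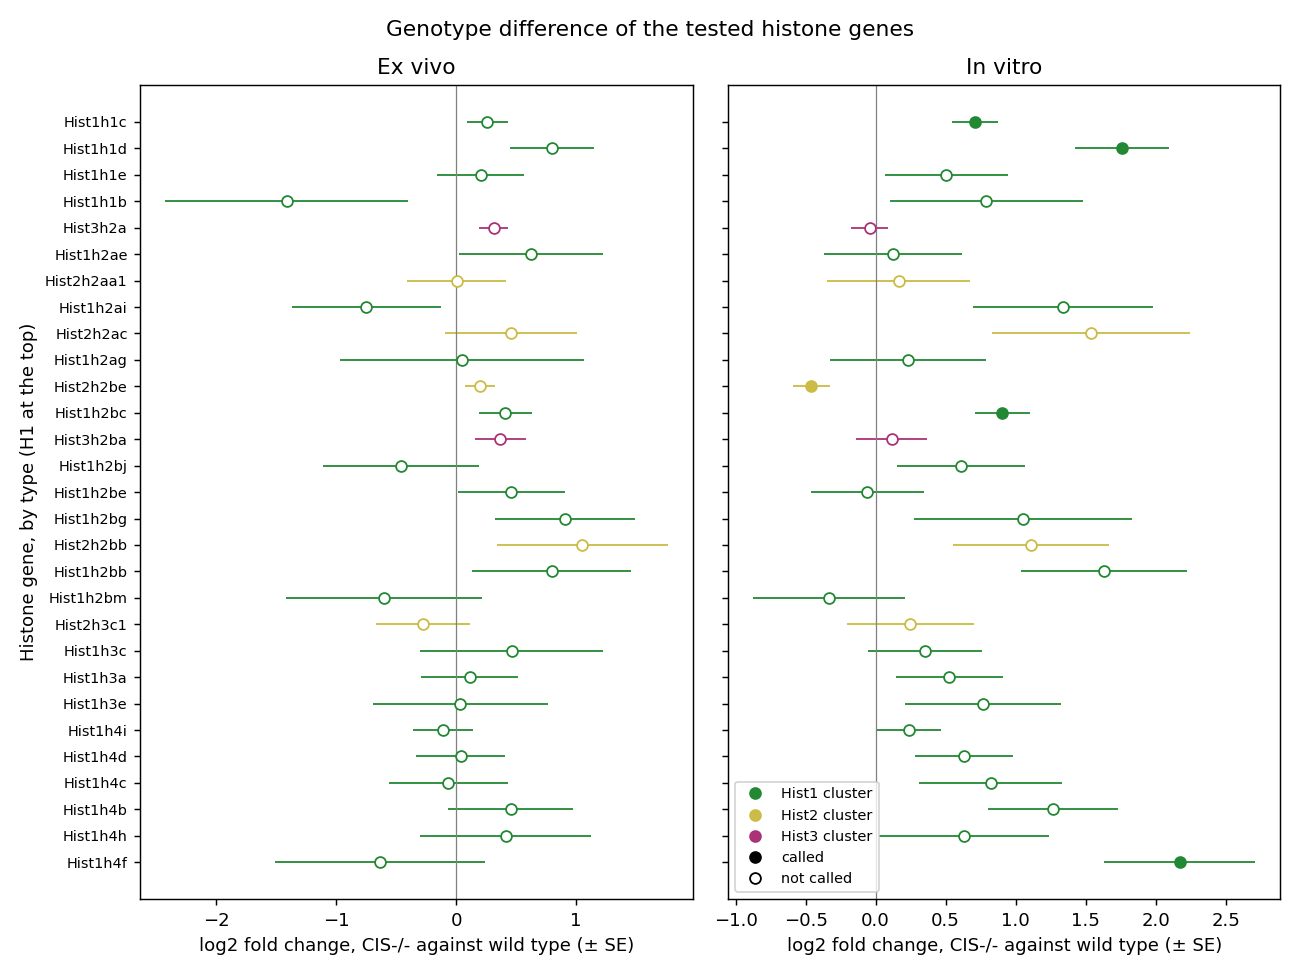
Log2 fold change of CIS-/- against wild type for the 29 tested members, ex vivo on the left and in vitro on the right, with SE bars; rows run by type from H1 at the top, colours mark the cluster and filled points are called. No point is filled ex vivo, and in vitro the filled points are Hist1h1d, Hist1h1c, Hist1h2bc and Hist1h4f, which are higher, and Hist2h2be, which is lower.

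The count of members called in vitro fell when either wild-type in vitro library or CIS-/- in vitro replicate 2 was left out. Fewer of all genes tested were called in these fits too, each of which leaves 1 library in a group. The same held without either wild-type ex vivo library. Without CIS-/- in vitro replicate 1 the count of members also fell, while more of all genes were called. The members' median log2 fold change in vitro was 0.678 and 0.805 without wild-type in vitro replicates 1 and 2. It was 0.861 and 0.466 without CIS-/- in vitro replicates 1 and 2, against 0.63 with all libraries. Gene length moved with the differences in vitro. Across the 13184 genes, the Spearman correlation of gene length with the difference between the CIS-/- in vitro replicates (2 minus 1) was -0.451. With the genotype difference in vitro it was -0.461, shorter genes being higher in CIS-/- cells and in CIS-/- replicate 2. It was -0.287 for genotype ex vivo, -0.226 and -0.307 for culture in wild type and CIS-/- cells, and -0.365 for the interaction. Between the CIS-/- ex vivo replicates (2 minus 1) it was 0.37. The tested members ran from 312 bases (Hist1h4f and 3 other H4 genes) to 2977 bases (Hist1h1d). With a trend on length and base composition together removed, in a fit of 11976 genes, 4 members were called, 3 higher and 1 lower, and the members' median was 0.37. The part of length alone was not tested. T cell markers also moved with genotype in vitro: of 15 tested, 7 were higher and 1 lower in CIS-/- cells. Of all genes tested, 11.0% were higher and 14.6% lower. Together the T cell markers reached 747.2 and 610.6 CPM in wild type and 1531 and 1555 CPM in CIS-/- cells. Cd3e was at 9.87 and 3.51 CPM in wild type and at 86.7 and 68.8 CPM in CIS-/- cells. Cd8a was at 1.56 and 0.141 CPM in wild type and at 9.02 and 6.21 CPM in CIS-/- cells, and Cd4 at 0.104 CPM or less in all 4. The part of T cell transcripts in the histone differences was not tested.

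No member was called in the interaction, the change of the genotype difference between the states (0 of 29, edgeR), beside 0.137% of all genes, and the count was 0 with DESeq2 and limma-voom too. The members' median was 0.41 against -0.04 over all genes, or 0.30 against -0.155 when scaled by library totals. With the trend on length and base composition removed it was 0.205 against -0.016. Hist2h2be (above), Hist1h4f (2.80 ± 1.06, adjusted p = 0.208) and Hist1h2ai (2.09 ± 0.89, adjusted p = 0.249) had an unadjusted p below 0.05. Hist1h2ai, an H2A gene, was at 0.589 and 0.434 CPM in wild type and 0.461 and 0.157 CPM in CIS-/- cells ex vivo, and at 0.209 and 0.176 and at 0.308 and 0.681 CPM in vitro. Members among the 3 highest of their type that were called in no comparison were Hist1h4d, Hist1h4c, Hist1h3a and Hist1h2ai. Hist1h4d had a mean of 4.08 CPM per kb, Hist1h4c 1.64, Hist1h3a 1.06 and Hist1h2ai 0.959, and their log2 fold changes on culture lay between -1.39 and 0.70.

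Genes that work with histone mRNA and histone protein were read from lists. Of 40 genes of DNA replication and S phase, when clustered histones are made, 34 rose and 2 fell on culture in wild type (median 1.04) and 32 rose and 2 fell in CIS-/- cells (median 1.23). Dut, which keeps uracil out of DNA, rose by 2.47 and 3.03 on the log2 scale, and the thymidine kinase gene Tk1 by 3.09 and 3.59 (adjusted p at most 5.4e-06, edgeR). Of 30 genes of G2/M and mitosis, 30 rose in wild type and 28 in CIS-/- cells, Ccnb1 (a mitotic cyclin) by 3.67 and 3.75. Summed, the S phase genes went from 1507 to 1511 CPM up to 2775 to 3066 CPM in wild type, while all clustered histone genes went from 79.6 to 87.1 CPM to 67.4 to 70.3 CPM. In CIS-/- cells the S phase genes went from 1391 to 1579 CPM to 2871 to 3042 CPM and the clustered histone genes from 95.3 to 101 CPM to 79.3 to 99.9 CPM, where the groups overlapped. The sum of the 6 genes with the most counts fell in wild type, from 70.8 and 65.5 to 56.0 and 51.2 CPM. Of these, Hist3h2a, Hist2h2be and Hist3h2ba were lower in vitro, and Hist1h4i and Hist1h2bc were higher. The wild-type mean of Hist1h1c was 14.7 CPM ex vivo and 14.8 CPM in vitro. The other 63 members overlapped, at 16.3 and 14.1 CPM ex vivo and 14.3 and 16.3 CPM in vitro, and the Hist1 sum given above was higher in vitro, as the S phase sum was. In the genotype comparison in vitro 1 S phase gene was higher and 3 lower, and 11 of 30 G2/M genes were lower and none higher. Of all genes tested, 11.0% were higher and 14.6% lower there. The trend on gene length seen in that comparison was not removed for the calls of these lists or of those below.

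Of 24 genes of histone mRNA transcription and processing, 6 rose and 7 fell on culture in wild type, and 5 rose and 11 fell in CIS-/- cells. In the genotype comparison in vitro 1 was higher and 8 lower. Over all genes tested, 63.7% were called on culture in wild type, 72.4% in CIS-/- cells and 25.6% between the genotypes in vitro. Slbp, the stem-loop binding protein, chosen for its role after its values were seen, was at 106.7 and 105.7 CPM in wild type ex vivo and 113.3 and 118.7 CPM in vitro. Its log2 fold changes on culture were 0.13 in wild type (adjusted p = 0.20) and -0.04 in CIS-/- cells (adjusted p = 0.64). Upf1, a helicase needed for histone mRNA decay, fell by 1.12 and 1.82 on the log2 scale (adjusted p = 0.00048 and 2.6e-05, edgeR) and was lower in CIS-/- cells in vitro (-1.001, adjusted p = 0.0071). Pou2f1, the octamer-binding factor, fell by 0.75 and 1.16 (adjusted p = 0.00059 and 3.7e-05). Zfp473, a zinc finger protein of the histone pre-mRNA processing complex, was lower in CIS-/- cells in vitro (-1.18, adjusted p = 0.011), and Ncbp1, a subunit of the cap-binding complex, was the 1 gene higher (0.27, adjusted p = 0.041).

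Of 27 histone chaperone, import and acetylation genes, 14 rose and 4 fell on culture in wild type and 12 rose and 7 fell in CIS-/- cells. The shares of all genes called in either direction were 63.7% and 72.4%. Asf1b, a chaperone of H3 and H4, rose by 2.11 and 1.83 on the log2 scale, and Ipo4, the importin that carries H3 and H4 into the nucleus, by 1.27 and 2.04 (adjusted p at most 1.9e-05, edgeR). In the genotype comparison in vitro Ipo4 was the 1 gene higher (0.48, adjusted p = 0.0084, edgeR) and 6 were lower, Atrx (-1.35), Cabin1 (-0.76) and Ubn1 (-0.57) among them. Of all genes tested, 25.6% were called in that comparison, 11.0% higher and 14.6% lower. Of the 15 histone genes outside the clusters, listed here as independent of replication, 11 were tested, and 6 rose and 1 fell on culture in each genotype. Whether the level of each is independent of replication was not checked. The linker histone gene H1f0 went from 10.5 and 11.3 to 97.6 and 126.3 CPM in wild type and from 9.44 and 6.41 to 80.4 and 89.9 CPM in CIS-/- cells. Cenpa, the centromeric H3, rose by 2.67 and 2.77 on the log2 scale (adjusted p at most 2.0e-06, edgeR). H2afz fell by 0.85 and 0.54 (adjusted p = 0.00037 and 0.0032), and it was the 1 gene of this list higher in CIS-/- cells in vitro (0.51, adjusted p = 0.018). No gene of these 5 lists was called in the ex vivo genotype comparison or in the interaction.

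Most tested markers of B cells, monocytes, neutrophils and erythroid cells fell on culture, where the Hist2 and Hist3 sums were also lower. Of 18 B cell markers tested, 16 fell in wild type and 17 in CIS-/- cells and none rose. Ex vivo their sum was 557.6 and 456.5 CPM in wild type. In CIS-/- cells ex vivo it differed widely between replicates 1 and 2, at 978.5 and 334.2 CPM. In vitro the B cell sum ranged from 93.6 to 167.1 CPM. Ms4a1 had no count in any in vitro library. Of 16 monocyte and macrophage markers, 13 fell and 2 rose in each genotype, and Fcgr1 had no count in vitro. Their sum was 2774 to 3167 CPM ex vivo and 1354 to 1891 CPM in vitro, mostly Itgam and Ccr2, which NK cells also express. Of 13 erythroid and megakaryocyte markers 9 fell and 2 rose in each genotype, and of 7 neutrophil markers 6 fell and 1 rose in wild type and 5 fell and 1 rose in CIS-/- cells. The summed levels of these last lists went the other way, from 282.1 to 316.1 CPM ex vivo to 1281 to 1610 CPM in vitro for the erythroid list and from 7.79 to 13.4 CPM to 62.8 to 100.9 CPM for the neutrophil list. Of the 10 NK markers 2 rose and 8 fell in each genotype. Itga2, which encodes the CD49b used for purification, fell by 3.80 and 4.80 on the log2 scale (adjusted p at most 5.4e-07, edgeR). In the same comparison 4 T cell markers rose and 7 fell in wild type and 7 rose and 4 fell in CIS-/- cells. The part of these cells in the lower Hist2 and Hist3 sums was not tested.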

How the data were processed

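Per the submitters' processing notes, the authors used Subread, featureCounts and limma on build GRCm38/mm10. Versions and counting settings are not given in the sources used here. The authors' deposited count matrix gives unnormalised reads of 27179 genes, and the deposited per-sample files hold the authors' log2 RPKM values for 12372 genes, 25 of the members among them. Counts were tested with edgeR 4.0.16 in R 4.3.3 (TMM scaling, a minimum count of 10 and total of 15 by group, 1 mean per group over all 8 libraries, quasi-likelihood test), with Benjamini-Hochberg adjustment across 13184 genes and a call at 0.05. The SE is the log2 fold change divided by the square root of F. CPM are counts over effective library size. DESeq2 1.42.0, limma 3.58.1, other scalings and filters, a fit on the compared samples alone, a length and base composition trend, a replicate block and leaving out each library were alternatives. Depth was 21485710 to 28065268 counts per library. The test was checked on simulated counts. Full values are given for the 3 highest members per type by CPM per kb, members called by genotype, and the 3 lowest p per direction for culture; others are given by counts or briefly. The members and lists were chosen with earlier results of these data known. Members were matched to GENCODE M21 by Entrez identifier (67) or symbol (2).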

Additional observations from a re-analysis of the deposited data

Results flagged for a closer look

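The summed CPM of the Hist2 cluster differed between the genotypes in opposite directions in the 2 states, with all libraries apart: the log2 ratio of the group means, CIS-/- against wild type, was 0.16 ex vivo and -0.28 in vitro. This difference of the sum was not tested. Its main gene, Hist2h2be, was tested for it and was not called (adjusted p = 0.128, edgeR).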

How the results depend on the processing

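The 33 called values of single members were recomputed under every alternative that could give one (632 values): 497 kept their direction and call, 135 kept their direction and lost the call, and 0 reversed. For 11 of the 33 the call held in every alternative. The number of members called between the genotypes in vitro was 5. It was 3 with a filter of 5 CPM in 2 libraries, 3 with DESeq2, 3 with the length and base composition trend removed together with a replicate block, and 3 with limma on the deposited log2 RPKM values. The 5 CPM filter left 5 members to test, of which 4 were called on culture in wild type and 5 in CIS-/- cells. Leaving out 1 library at a time gave 0 to 5 calls for genotype in vitro, 5 to 13 for culture in wild type, 8 to 16 for culture in CIS-/- cells and 0 to 0 for genotype ex vivo and for the interaction. With 1 library left in a group, that library is assumed to vary like the others. Whether replicate numbers pair the libraries is not known. The 6 correlations of replicate differences between groups ran from -0.232 to 0.146. They cannot exclude a pairing, since replicate differences also followed gene length (Spearman 0.37 in CIS-/- ex vivo and -0.451 in CIS-/- in vitro). With a replicate block the counts of calls were 0, 4, 11, 13 and 0 (genotype ex vivo, genotype in vitro, culture in wild type, culture in CIS-/- cells, interaction). With the CIS-/- in vitro numbers exchanged, an alternative added after seeing the data, they were 0, 5, 14, 14 and 0. Over all genes, DESeq2 called 45 against 8 genes ex vivo and 592 against 18 in the interaction. The interaction was not fitted on compared samples alone, since it uses all groups. Depth limits the family: 52 of 69 members had under 100 counts over 8 libraries, and for these a missed call says little.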
